A study of Mus musculus with 4 samples.

Results

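The Wnt and beta-catenin pathway was followed through 41 named protein-coding genes of 21775 in the gene table: 8 Wnt ligands, 9 receptors, 4 inhibitors that are secreted or sit in the membrane, 13 intracellular members and 7 nuclear members. They were chosen by name, with earlier results of these data known. For each gene the CUT&Tag peaks within 1 kb of either gene boundary or inside the gene were collected. CUT&Tag uses an antibody to direct a transposase to chromatin, so that adapters are inserted near the protein. All 4 libraries came from primary haematopoietic stem cells of mouse bone marrow, from animals described as wild type for Ppp2ca, with no treatment named. They comprised 2 libraries with an antibody to PPP2CA, the catalytic subunit of the phosphatase PP2A (PPP2CA 1 and 2), and 2 with control immunoglobulin G (IgG 1 and 2). Strain, age and whether the libraries came from separate animals are not given in the sources used here.

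Wnt proteins are secreted signals that bind Frizzled receptors and the co-receptors LRP5 and LRP6 on the cell surface. In their absence a cytoplasmic destruction complex of AXIN, APC, GSK3 and casein kinase 1 phosphorylates beta-catenin, which is then ubiquitinated by BTRC and degraded. When the pathway is active, Dishevelled proteins recruit the complex to the membrane and beta-catenin enters the nucleus, where it acts with TCF and LEF factors. The phosphatase PP2A opposes the kinases of this pathway at several steps, and Wnt signals are known to influence the self-renewal of blood stem cells.

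The PPP2CA libraries held 16811 and 17686 peaks and the IgG libraries 561 and 310. The lowest local background of a list, which follows its depth, was 0.784 and 0.800 fragments for PPP2CA and 0.0839 and 0.0833 for IgG, so the PPP2CA libraries were 9.34 to 9.61 times deeper by this measure. A PPP2CA region here is a place with a peak in both PPP2CA libraries and in neither IgG library. At regions whose summits lay within 100 bp of each other, fragment counts of the PPP2CA libraries varied by 0.759 times the Poisson expectation (6788 summits). These are places called in both libraries with summits close together, a choice that favours agreement. There they differed by less than the sampling noise, and the libraries were counted as 1 sample. Values are therefore given for each library without an SD, and no p is given for PPP2CA against IgG. The mean of both libraries was used only for group medians and for the share of genes that a region exceeded. The smallest p that an exact test of 2 against 2 libraries allows is 1 in 3. Chromatin marking is not expression, and the labelled cell type could not be checked by RNA. Of the stem cell markers listed, 5 of 12 had a region at a boundary (Kit, Runx1, Meis1, Mecom and Tal1), a share of 41.7% beside 39.5% of all protein-coding genes, so they do not mark these cells out. The other counts were 1 of 6 lymphoid, 1 of 6 myeloid, 2 of 5 erythroid and 0 of 6 stromal and endothelial markers.

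The Wnt pathway genes divided by role, with the ligands lowest. At their boundaries, 0 of 8 Wnt ligand genes had a PPP2CA region, whereas 5 of 9 receptors, 9 of 13 intracellular members and 3 of 7 nuclear members did. Ligands and receptors together had 5 of 17 (29.4%) and intracellular and nuclear members 12 of 20 (60%), beside 39.5% of all protein-coding genes. Receptors alone, at 55.6%, lay above that 39.5%, so the low joint share came from the ligands. Nuclear members alone, at 42.9%, lay near it. With regions inside the gene also counted, ligands and receptors had 6 of 17 (35.3%) and intracellular and nuclear members 19 of 20 (95%), beside 45.3% of all protein-coding genes. This last count rests on low summits: with at least 20 fragments in both libraries it was 12 of 20, against 4 of 17 ligands and receptors and 29.8% of all genes. Without that minimum, Tcf7 was the 1 intracellular or nuclear gene without a region. The median over all members of a group of the mean summit of the best region, with genes lacking one set to 0, was 0 fragments for ligands and receptors and 27.8 for intracellular and nuclear members, and it was 0 over all protein-coding genes. Intracellular and nuclear genes were also longer, with a median of 36471 bp against 19664 bp for ligands and receptors and 17219 bp for all genes. The part of length in the counts inside genes was not tested. Each PPP2CA library alone placed a peak at a boundary of more members, 24 in PPP2CA 1 (43.8% of all genes) and 22 in PPP2CA 2 (44.4% of all genes). Within 1 kb or inside the gene, 51.5% and 52.4% of all genes had a peak in PPP2CA 1 and PPP2CA 2. Over all 41 members, 18 had a region at a boundary (43.9%) and 27 at a boundary or inside the gene (65.9%).

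**Figure D1:**
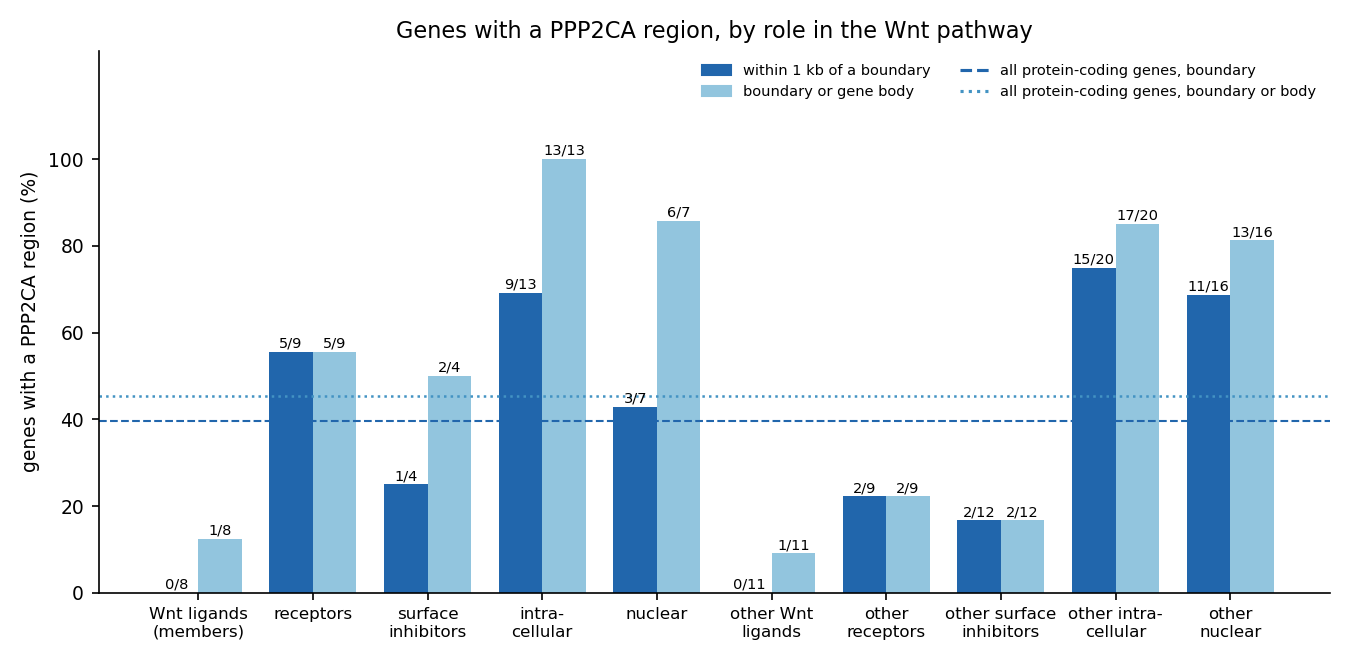
Share of genes with a PPP2CA region, in percent, for the 5 roles of the members and for other genes of the pathway, with the number of genes above each bar; dark bars count regions within 1 kb of a gene boundary and light bars also those inside the gene. The dashed and dotted lines mark all protein-coding genes (39.5% and 45.3%), and the ligand bars lie lowest, at 0 of 8 and 0 of 11 at a boundary, while the intracellular bars reach 13 of 13 and 17 of 20.

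Strand and start positions were available from the promoter table for 28 of the members. They place the boundary regions of these genes, but not all of their other regions, at gene starts. Of the 18 boundary regions, 11 lay at the start of their gene, 0 at the end, and 7 belonged to genes with no entry in that table. The same split over all protein-coding genes is not given here. Regions inside Wnt5b, Rnf43, Gsk3b, Tcf7l2 and Lef1 had summits 5206 bp or more from a listed start. Within 1 kb of a listed start, 3 of 11 ligands and receptors and 11 of 15 intracellular and nuclear members had a region. The share was 41.5% of the 17491 protein-coding genes with a listed start. Taken apart, ligands had 0 of 7 and receptors 3 of 4, namely Fzd4, Fzd5 and Fzd7.

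Promoters of 300 bases (250 before and 50 after the start, from RefSeq, GRCm38.p6, 5′ to 3′ on the strand of the gene) are printed below for 7 members, with each CpG in capitals. Csnk1g2 (chr10:80622530-80622829, plus strand), Ctnnb1 (chr9:120933150-120933449, plus strand) and Gsk3a (chr7:25237802-25238101, minus strand) were among the members with the tallest regions. Bcl9 (chr3:97227315-97227614, minus strand) is a start inside the annotated gene that lay under a region. Wnt3a (chr11:59290702-59291001, minus strand), Wnt4 (chr4:137277385-137277684, plus strand) and Tcf7 (chr11:52282965-52283264, minus strand) are shown because they are about as dense in CpG as the first pair and had no peak in any of the 4 libraries. The Tcf7 stretch lies wholly inside the annotated gene (chr11:52246527-52283383), so it is not sequence upstream of that gene.
Csnk1g2: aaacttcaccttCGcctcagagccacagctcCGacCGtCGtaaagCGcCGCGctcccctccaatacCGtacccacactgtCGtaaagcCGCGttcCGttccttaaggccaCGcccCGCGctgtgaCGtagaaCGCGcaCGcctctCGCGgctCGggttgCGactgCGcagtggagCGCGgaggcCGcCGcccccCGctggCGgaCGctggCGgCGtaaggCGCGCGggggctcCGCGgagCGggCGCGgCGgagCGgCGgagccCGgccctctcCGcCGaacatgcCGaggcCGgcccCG
Ctnnb1: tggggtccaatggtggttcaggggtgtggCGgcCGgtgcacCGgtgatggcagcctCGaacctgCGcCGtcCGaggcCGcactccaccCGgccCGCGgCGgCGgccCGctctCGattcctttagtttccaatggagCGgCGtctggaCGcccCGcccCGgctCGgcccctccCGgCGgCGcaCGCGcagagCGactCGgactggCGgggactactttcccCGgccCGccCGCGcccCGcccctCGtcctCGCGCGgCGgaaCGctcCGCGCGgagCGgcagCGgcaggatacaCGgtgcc
Gsk3a: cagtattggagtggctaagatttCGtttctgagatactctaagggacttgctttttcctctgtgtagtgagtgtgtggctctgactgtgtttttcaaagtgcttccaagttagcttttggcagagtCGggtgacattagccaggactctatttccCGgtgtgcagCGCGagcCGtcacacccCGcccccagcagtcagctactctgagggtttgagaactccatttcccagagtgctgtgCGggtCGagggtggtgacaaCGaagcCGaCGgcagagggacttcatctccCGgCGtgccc
Bcl9: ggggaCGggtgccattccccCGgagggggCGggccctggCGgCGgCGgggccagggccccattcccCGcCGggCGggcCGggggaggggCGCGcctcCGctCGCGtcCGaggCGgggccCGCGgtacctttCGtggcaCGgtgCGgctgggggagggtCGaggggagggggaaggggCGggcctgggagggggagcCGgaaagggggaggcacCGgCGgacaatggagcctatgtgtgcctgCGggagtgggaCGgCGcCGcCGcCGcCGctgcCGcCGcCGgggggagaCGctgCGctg
Wnt3a: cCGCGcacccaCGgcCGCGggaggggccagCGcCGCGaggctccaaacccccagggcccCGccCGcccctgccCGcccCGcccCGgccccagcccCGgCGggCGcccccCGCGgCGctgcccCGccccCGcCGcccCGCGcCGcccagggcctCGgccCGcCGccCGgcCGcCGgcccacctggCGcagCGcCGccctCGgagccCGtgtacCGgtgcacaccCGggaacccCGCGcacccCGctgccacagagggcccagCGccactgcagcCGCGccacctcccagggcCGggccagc
Wnt4: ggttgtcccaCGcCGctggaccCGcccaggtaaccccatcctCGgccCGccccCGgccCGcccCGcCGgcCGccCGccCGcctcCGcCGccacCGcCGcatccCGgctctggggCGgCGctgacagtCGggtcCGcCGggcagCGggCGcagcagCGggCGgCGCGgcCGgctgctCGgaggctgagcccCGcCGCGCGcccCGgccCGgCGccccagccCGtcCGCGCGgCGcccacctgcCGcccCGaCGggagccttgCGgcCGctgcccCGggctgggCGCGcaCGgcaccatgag
Tcf7: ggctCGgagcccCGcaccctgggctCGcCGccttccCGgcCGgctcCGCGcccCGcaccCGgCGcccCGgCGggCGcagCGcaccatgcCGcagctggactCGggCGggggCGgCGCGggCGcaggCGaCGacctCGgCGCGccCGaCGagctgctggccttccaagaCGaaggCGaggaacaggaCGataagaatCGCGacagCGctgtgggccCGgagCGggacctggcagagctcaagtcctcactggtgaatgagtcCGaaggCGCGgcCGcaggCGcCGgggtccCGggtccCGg

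The Wnt ligands open the pathway as secreted lipid-modified proteins. Wnt3, Wnt3a, Wnt4, Wnt5a and Wnt11 had no peak within 1 kb or inside the gene in any library. At Wnt1 a peak of 13 fragments, 369 bp before the start, was called in PPP2CA 1 alone. Wnt10b had 18 fragments inside the gene in PPP2CA 1 and 22 fragments 966 bp before its start in PPP2CA 2, at places that did not overlap. A peak of 10 fragments, 171 bp after a start of Wnt5b, was called in PPP2CA 2 alone. The single-library values therefore came from different places or from 1 library, and none gave a region at a boundary. Absence from a list is not absence of fragments, since the lowest summit called in the PPP2CA libraries held 5 fragments.

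Wnt5b, a ligand of beta-catenin-independent signalling, was the only member ligand with regions in its body. The tallest of its 3 regions (chr6:119478936-119481108) held 46 and 52 fragments in PPP2CA 1 and 2, with a fold over local background of 5.84 and 5.65. A summit of this region lay 184 bp before the listed start of Fbxl14, a gene that lies within Wnt5b, and 12267 bp or more from any listed start of Wnt5b. The other 2 regions held 10 and 17 and 13 and 13 fragments. From the other 7 ligand genes the nearest region was 7131 bp (Wnt10b) to 1074920 bp (Wnt5a) away.

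Among the receptors, which carry the signal across the membrane, Fzd5 had the tallest region (chr1:64736819-64738372). Its summit held 50 and 48 fragments in PPP2CA 1 and 2, with a fold of 8.46 and 7.23, and lay 63 and 16 bp after the start. The region at the start of Fzd7 held 32 and 32 fragments (fold 6.61 and 5.52), and that at the high-coordinate end of the co-receptor gene Lrp6 (chr6:134566540-134567329) 25 and 36 (7.75 and 9.08). Fzd4 followed with 16 and 21 fragments. Its region also lay at Tmem135, a gene on the other side whose listed start was 23 bp from a summit, so the signal cannot be given to 1 of the 2 genes. Fzd6 was the lowest, with 12 and 11 fragments and summits 453 bp apart. Both libraries placed Fzd5 highest and Fzd6 lowest, whereas Fzd7 and Lrp6 changed places between them.

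The other 4 receptors had no region. Fzd2 (16 fragments) and Fzd8 (7 fragments) had a peak at a boundary in PPP2CA 1 alone, and Fzd1 had none in any library. Lrp5, the second co-receptor, had 1 peak in PPP2CA 1 (12 fragments) and 3 in PPP2CA 2 (13, 11 and 6 fragments) inside the gene, none at the same place, and a peak of 5 fragments in IgG 1. The nearest region to Lrp5 lay 1473 bp outside it, just beyond the 1 kb window. The co-receptor genes thus differed, Lrp6 with a region shared by both libraries and Lrp5 without one.

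Of the 4 surface inhibitors, Znrf3 alone had a region at a boundary. ZNRF3 and RNF43 are membrane ubiquitin ligases that remove Frizzled receptors. The Znrf3 region (chr11:5444407-5445638) held 37 and 37 fragments (fold 7.49 and 7.60), and an IgG 2 peak of 4 fragments lay 16150 bp inside the gene. Rnf43 had a region inside the gene with 25 and 16 fragments, and a peak of 11 fragments 591 bp before its start in PPP2CA 2 alone. The secreted antagonists Dkk1 and Sfrp1 had no peak in any library, and the nearest regions were 514601 and 153894 bp away.

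Inside the cell, Csnk1g2, Gsk3b and Gsk3a had the 3 tallest summits of the 41 genes in both libraries. The casein kinase 1 genes differed widely, down to 22 and 17 fragments at Csnk1e. The median summit in PPP2CA 1 and 2 was 23 and 25 fragments over all regions. It was 28 and 31 over the best boundary regions of protein-coding genes. Casein kinase 1 gamma 2, encoded by Csnk1g2, is a membrane-bound kinase that phosphorylates LRP6. Its region (chr10:80621991-80623707) held 350 and 367 fragments, a fold of 11.2 and 11.5, with summits 310 and 305 bp before the start. It ranked 12 among the 12438 regions and was above 99.6% of protein-coding genes with a boundary region by mean summit. Scaled by the lowest local background, the PPP2CA 1 summit would be 37.5 fragments at the depth of IgG 1 and the PPP2CA 2 summit 38.2 at that of IgG 2. IgG summits were called from 3 fragments, and neither IgG library had a peak there.

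GSK3 phosphorylates beta-catenin for degradation, and its alpha and beta forms are encoded by Gsk3a and Gsk3b. At Gsk3a the region (chr7:25237616-25239347) held 119 and 133 fragments (fold 10.1 and 10.3), with summits 246 and 244 bp before the start. Gsk3b had more, 184 and 243 fragments (fold 10.3 and 11.9), at the same base in both libraries, 51 bp after the start. The place at Gsk3b (chr16:38088281-38089779) is not among the PPP2CA regions because IgG 1 had a peak there of 6 fragments, with no peak in IgG 2. Scaled in the same way, the PPP2CA summits would be 19.7 and 25.3 fragments at IgG depth. Gsk3b is therefore counted through a second region 42730 bp inside the gene, with 13 and 18 fragments. With regions that have an IgG peak kept, 19 members had one at a boundary, beside 40.2% of all genes (45.9% with regions inside the gene).

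Casein kinase 1 alpha, encoded by Csnk1a1, gives beta-catenin its priming phosphate. The Csnk1a1 region held 89 and 88 fragments (fold 10.7 and 8.75) and began 542 bp inside the low-coordinate boundary, and it was missed with a window of 500 bp. Csnk1d held 48 and 74 fragments. Csnk1e had its region inside the annotated gene, with 22 and 17 fragments at summits 162 and 586 bp after one of its 4 listed starts. Casein kinase genes outside the members, Csnk1g1 and Csnk1g3, held 22 and 29 and 21 and 31 fragments, so that 5 of the 6 casein kinase 1 genes had a region at a boundary, beside 39.5% of all protein-coding genes.

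The scaffolds of the destruction complex had lower regions, apart from Axin1. The taller Axin1 region (chr17:26138146-26139316) held 73 and 78 fragments (fold 8.96 and 8.84) and lay 6929 bp inside the gene, away from both boundaries. It lay within 1 kb of a boundary of Gm46600, a gene not listed as protein-coding. Axin1 has no listed start, so the distance of this region from a start of Axin1 is not known. Axin2, a scaffold and a classical transcriptional target of beta-catenin, held only 12 and 10 fragments, at summits 9 and 377 bp after its listed start. That region begins 2412 bp inside the annotated gene. Apc held 31 and 21 fragments (fold 9.41 and 6.12) and the ubiquitin ligase gene Btrc 22 and 22 (6.95 and 7.31). Each of the 3 Dishevelled genes was marked at its start: Dvl1 with 38 and 44 fragments, Dvl2 with 46 and 55 and Dvl3 with 15 and 23. Dvl2 combined a mid-level summit with the lowest fold of any boundary region among the members, 2.90 and 3.32, with a local background of 15.2 and 15.9 fragments. Its region also lay within 1 kb of the end of Phf23 but did not overlap that gene. Other places lay within 1 kb of a boundary of a gene not listed as protein-coding. These were Csnk1g2 (Gm31298), Csnk1d (LOC115486436), Apc (Gm10548), Dvl3 (Gm16618), Fzd6 (Gm26704) and the Gsk3b place with an IgG peak (BC031361). The signal there cannot be given to 1 gene alone.

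In the nucleus, Ctnnb1, which encodes beta-catenin itself, had the tallest region of its group. Its region (chr9:120933119-120934500) held 91 and 81 fragments (fold 8.71 and 7.11), with summits 57 bp after and 94 bp before the second of its listed starts; the latter summit was 84 bp after the first. Pygo2, which links beta-catenin and BCL9 to methylated histone H3, held 37 and 37 fragments in a region that also touched the end of Shc1. Bcl9, the adaptor between beta-catenin and Pygopus, had its region inside the annotated gene, with 35 and 24 fragments at summits 300 and 166 bp before its listed start.

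The 4 TCF and LEF factors, which bind DNA for beta-catenin, were low or without a region. Tcf7l1 held 17 and 23 fragments, 420 and 326 bp before its start. At Tcf7l2 the 2 regions deep in the gene held 6 and 10 and 11 and 12 fragments. Near its start PPP2CA 1 had a peak of 15 fragments 137 bp before it and PPP2CA 2 one of 16 fragments 2010 bp after it, which did not overlap. Lef1 held 15 and 15 fragments at a place 52344 bp or more from a listed start. Tcf7, encoding the TCF1 protein of T cells and stem cells, had no peak in any library, and the nearest region was 13837 bp away. Beta-catenin and its adaptors thus carried regions at listed starts, whereas of the 4 factors only Tcf7l1 did.

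**Figure D2:**
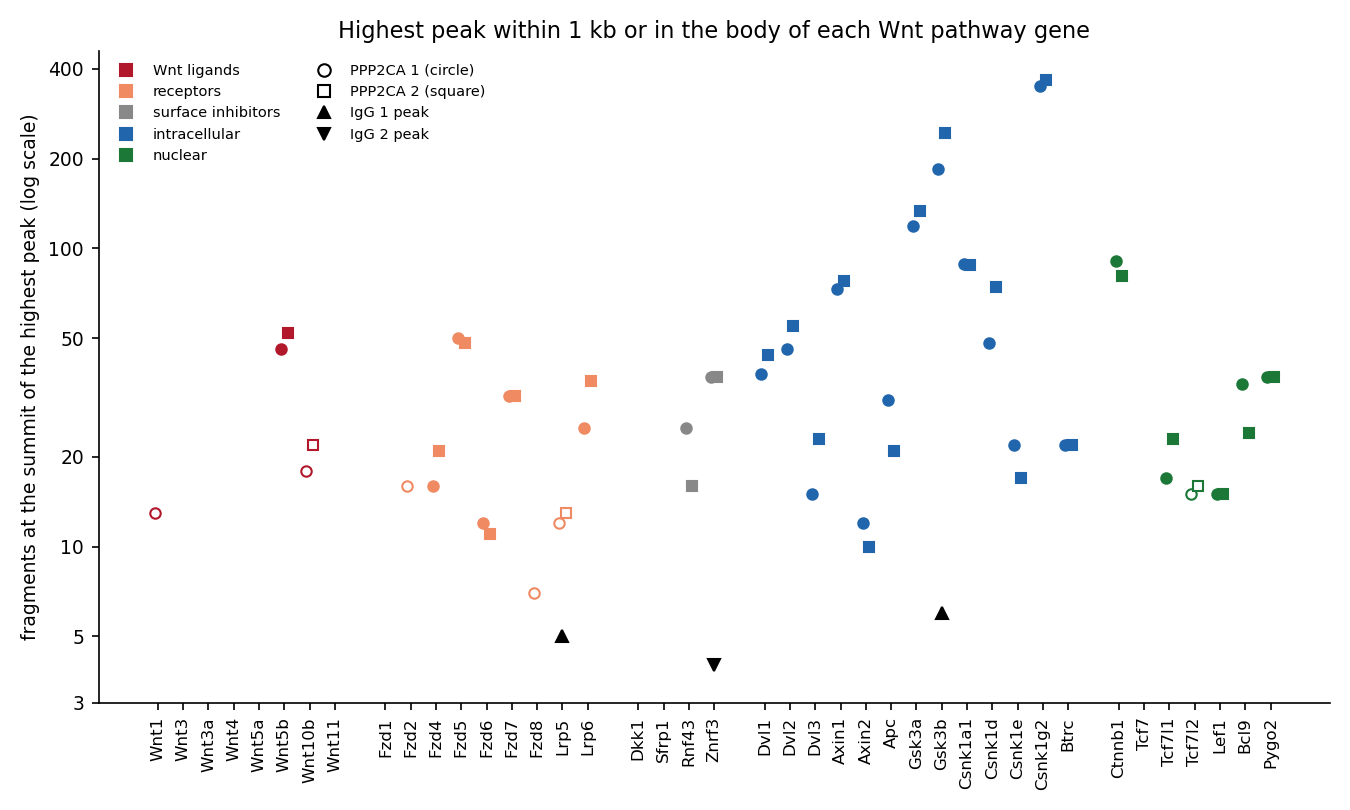
Fragments at the summit of the highest peak within 1 kb or inside each of the 41 genes, on a log scale, with circles for PPP2CA 1, squares for PPP2CA 2 and triangles for IgG; filled symbols are peaks at a place marked in both PPP2CA libraries (at Gsk3b with an IgG peak) and open symbols peaks of 1 library. Csnk1g2 is highest at 350 and 367, Wnt3, Wnt3a, Wnt4, Wnt5a and Wnt11 have no symbol, and the IgG symbols at Lrp5, Znrf3 and Gsk3b lie at 4 to 6 fragments.

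Where both PPP2CA libraries had a peak, they gave the members like values. A region needs a peak in both, a choice that favours agreement, and places called in 1 library alone were not compared. Over the 31 regions of the members the ratio of PPP2CA 2 to PPP2CA 1 fragments ran from 0.640 (Rnf43) to 1.70 (Wnt5b), with a median of 1.0, beside 1.08 over all regions. For Csnk1g2 it was 1.05 (95% exact interval 0.903 to 1.22), for Gsk3a 1.12 (0.866 to 1.44) and for Ctnnb1 0.890 (0.652 to 1.21). Csnk1d had the lowest p of the members, with a ratio of 1.54 (1.06 to 2.27, exact two-sided binomial p = 0.0696 against the overall ratio of 1.09, 1.0 after Benjamini-Hochberg adjustment). None of the 12438 regions was called different between the libraries (0%), and 240 had an unadjusted p under 0.05 by the same exact binomial test. At the low regions the intervals were wide, as for Fzd6 at 0.917 (0.366 to 2.27). They compare the libraries at a region, and no test between members was run. The order of members with low or close counts therefore cannot be resolved here.

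The IgG libraries had a peak at 3 of the 41 genes (Lrp5, Gsk3b and Znrf3), beside 2.08% of all protein-coding genes, and Gsk3b alone had it at a PPP2CA place. IgG 1 had a peak at a boundary of 1 member (0.606% of all genes) and at a boundary or inside 2 (1.46% of all genes). For IgG 2 these numbers were 0 members (0.22%) and 1 member (0.721%). For 11 of the 18 boundary regions the summit scaled to IgG depth would reach the lowest called IgG summit of 3 fragments in both IgG libraries. For the other 7 (Fzd4, Fzd6, Lrp6, Dvl3, Apc, Btrc and Tcf7l1) it would stay below 3 fragments in 1 or both, so a missing IgG peak says little there.

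**Figure D3:**
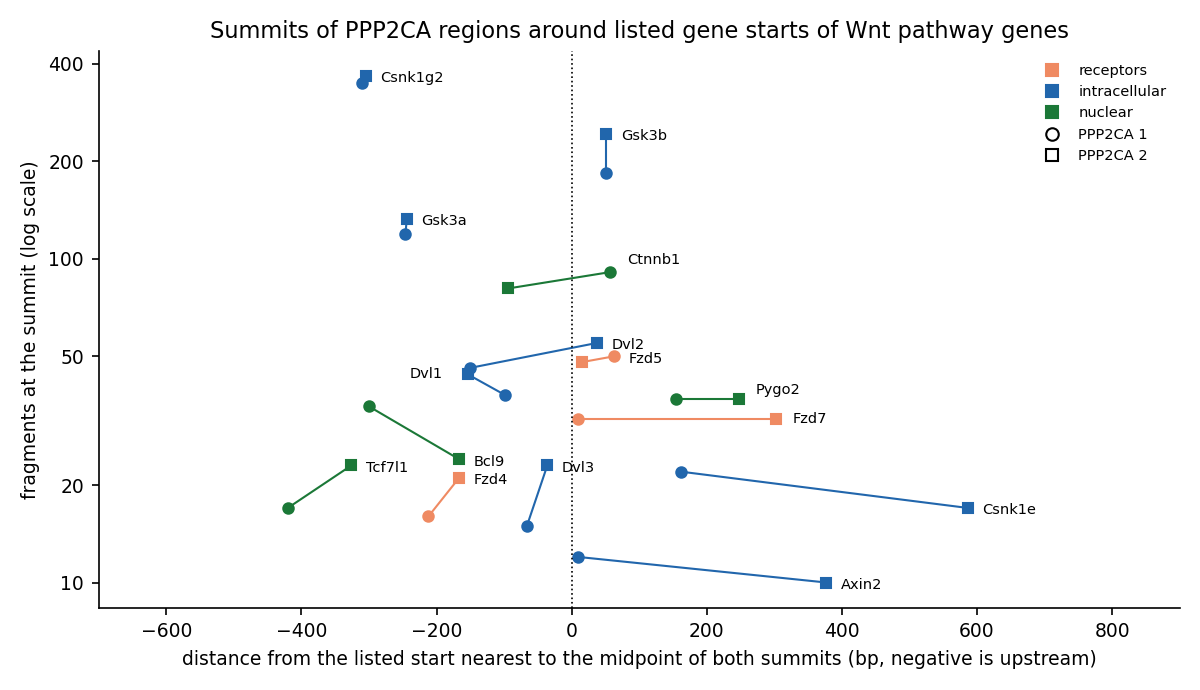
Distance of region summits from the listed gene start nearest to the midpoint of both summits in bp (negative is upstream) against fragments at the summit on a log scale, for the 15 member regions with both summits within 1 kb of a listed start, Gsk3b with its IgG peak included; a line joins PPP2CA 1 (circle) and PPP2CA 2 (square) of the same region. The median distance was 158 bp, and by this measure both summits lay upstream in 7 regions and downstream in 6, and no ligand appears. The PPP2CA 2 summit of Ctnnb1, drawn 94 bp upstream, lay 84 bp downstream of the other listed start.

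Summits near starts lay on both sides of them. Of the 15 regions with both summits within 1 kb of a listed start, 3 (Axin2, Csnk1e and Bcl9) had been counted as inside the gene, because the annotated gene begins further upstream than these starts. Boundary regions of members were 463 bp (Dvl2) to 1732 bp (Gsk3a) wide with a median of 1026 bp, beside 1011 bp for the best boundary regions of all protein-coding genes. The 13 regions inside members had a median width of 796 bp.

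The listed promoters of the members were rich in CpG, with or without a region. The table holds 44 promoters of the 28 genes, some overlapping each other (those of Csnk1e, Ctnnb1, Lef1 and Pygo2 among them). A region covered 19 of the 44, beside 38.3% of all 21262 protein-coding promoters. Gsk3b, whose region has an IgG peak, is among the 25 without one. The 19 held a median of 34 CpG (14 to 54) and the 25 held 18 (3 to 51), while over all protein-coding promoters the medians were 24 with a region and 5 without. Across all promoters the share with a region ran from 2.14% with at most 4 CpG to 71.3% with 30 or more, a limit chosen after the values were seen. Among the members, 19 promoters reached 30 CpG and 13 of these had a region. The 6 that had none were those of the ligands Wnt3a (45 CpG), Wnt4 (51), Wnt5b (47) and Wnt11 (45) and of Tcf7 (45, inside the annotated gene) and Tcf7l2 (34). Of these, the Wnt5b promoter lay under a peak of 10 fragments in PPP2CA 2 alone. The Tcf7l2 promoter overlapped a peak of 15 fragments in PPP2CA 1 alone. With the 11 other Wnt genes added, 8 of the 18 listed ligand promoters reached 30 CpG and 0 of the 8 had a region. Gsk3a was the reverse case, with 14 CpG and the tallest region but one of those without an IgG peak.

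**Figure D4:**
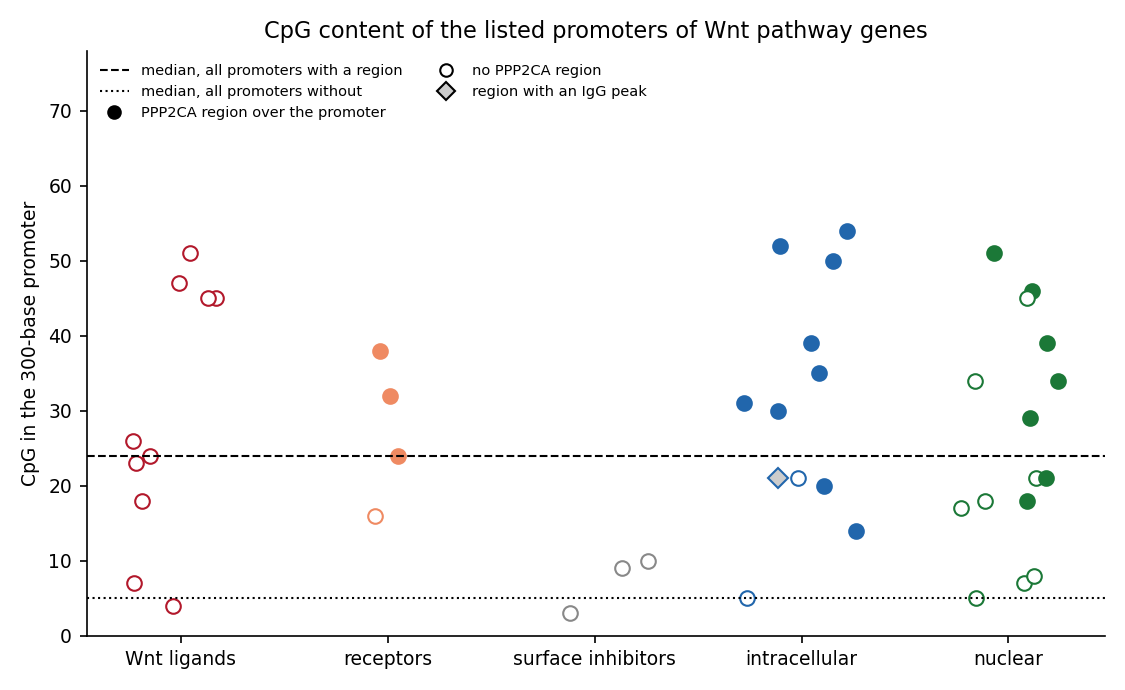
CpG dinucleotides in each of the 44 listed 300-base promoters of the members, by role; filled circles have a PPP2CA region, open circles none, and the diamond is Gsk3b, whose region has an IgG peak. The lines mark the median of all protein-coding promoters with a region (24) and without (5), and the 4 open ligand circles at 45 to 51 lie as high as filled circles of the intracellular and nuclear genes.

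Short motifs in the same promoters were searched on both strands. The GC box GGGCGG was in all 19 member promoters with a region and in 15 of the 25 without, beside 46.2% of all protein-coding promoters, 72.2% of those with a region and 30.1% of those without. CCAAT was in 9 of the 19 and 2 of the 25, beside 38.2% of all. Over all protein-coding promoters it was about as frequent with a region (39.2%) as without (37.5%). The TCF/LEF sequence CTTTGAT or CTTTGTT was in 1 of the 19 (Fzd7) and in 5 of the 25 (Wnt3, Wnt5b, Wnt11, Dkk1 and a start within Tcf7l2), beside 8.06% of all. TATAAA was in 1 of the 19 and 7 of the 25 (12.6% of all). CCGGAAG was in 1 and 2 (11.6%), TGACGTC in 1 and 1 (3.84%), ATGGCGG in 0 and 1 (5.24%) and GCATGCG in none (4.44%). Matches of different motifs may share bases, and a match is a run of letters, not a shown binding site.

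Another 74 pathway genes outside the 41 were also listed with earlier results of these data known. Among these genes, intracellular and nuclear ones again had regions more often than ligands and receptors, by counts alone. A region lay at a boundary of 31 (41.9%), close to the 39.5% of all protein-coding genes. They were 15 of 20 intracellular and 11 of 16 nuclear genes, but 0 of 11 Wnt ligands, 0 of 4 R-spondins, 2 of 9 receptors, 2 of 12 surface inhibitors and 1 of 2 secretion genes. The tallest intracellular regions lay at Rbx1, a ubiquitin ligase subunit (148 and 188 fragments), and at Frat2 (155 and 157) and Frat1 (131 and 129), which encode GSK3-binding proteins. In the nucleus they lay at the acetyltransferase gene Ep300 (142 and 204), the co-repressor gene Tle4 (116 and 137) and Smarca4 (61 and 76). The receptors with one were Lgr4 (15 and 21) and Fzd9 (13 and 18), and the inhibitors Kremen1 (35 and 24) and Kremen2 (21 and 17). Porcn, which attaches the lipid to Wnt proteins, held 14 and 13 fragments. Wnt9a had the only region inside another ligand gene, with 15 and 9 fragments. Over the 19 Wnt ligand genes, 0 had a region at a boundary and 2 had one inside the gene.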

How the data were processed

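Each library has a narrowPeak table from the authors, which gives a score, a fold, a −log10 p, a −log10 q and a summit for every peak. Per the submitters' processing notes, the tools were MACS2, BWA, Trimmomatic, HOMER, ChIPseeker and deepTools and the builds mm10 and GRCm38, with no settings. It is not known here if MACS2 used the IgG libraries as a control. The deposited fold is a ratio of summit to local background within 1 library, so peaks were described and ranked within a list. The deposited score was not used. Fragments at each summit were recovered as the whole number that gives both the deposited fold, (fragments + 1) / (background + 1), and the deposited −log10 p as a Poisson tail; this succeeded for 100% of peaks in each list (relative error below 0.0001). Total reads were not used here.

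Overlapping peaks (at least 1 bp) of both PPP2CA libraries were merged, and merged regions with an IgG peak were left out, which left 12438. Gene boundaries came from a RefSeq table of GRCm38.p6 (genes below 3000000 bp left out, except on Y) and starts and strands from RefSeq promoters of the same build. Values of a region are those of its best peak by −log10 q in each library. The alternatives changed the window, start, thresholds, overlap rule and libraries used. The 95% limits of ratios are exact (Clopper-Pearson); PCR copies are not independent molecules, so they reflect counting alone. The steps were tested on simulated data. All 41 members are accounted for, and of other pathway genes the 3 best of each list by the worse of the 2 ranks are named. The listed targets of beta-catenin are all named. Members and lists were chosen with earlier results of these data known. Python 3.11.15, numpy 2.4.6, pandas 2.3.3, scipy 1.17.1 and matplotlib 3.10.9 were used.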

Additional observations from a re-analysis of the deposited data

How the results depend on the processing

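Of 64 recomputed counts, 58 stayed within 1.5 times the value given above. Ligands and receptors with a region at a boundary numbered 3 at gene starts only, where 11 of the 17 have a listed start, beside 41.5% of genes with one. With at least 20 fragments in both PPP2CA libraries they also numbered 3, when Fzd4 and Fzd6 were lost, beside 26.5% of all genes. Leaving out single libraries gave 5 to 8 for that count, beside 39.7% to 43.8% of all genes. It was highest without PPP2CA replicate 2 (43.2% of all genes), when Wnt1, Fzd2 and Fzd8 were gained. With at least 20 fragments, 17 members had a region at a boundary or inside the gene, 12 of them intracellular or nuclear, beside 29.8% of all genes. Members with an IgG peak numbered 1 without IgG replicate 1 (0.721% of all genes) and 2 without IgG replicate 2 (1.46%). With −log10 q of 5 or more they numbered 0, beside 28 of all 21775 genes. Intracellular and nuclear members (20 genes) outnumbered ligands and receptors (17 genes) in each of the 12 settings tried. The counts ran from 10 against 3, with at least 20 fragments (26.5% of all genes), to 14 against 8, without PPP2CA replicate 2 (43.2%). These settings reuse the same peaks and are not independent. No paired analysis was possible because no test between PPP2CA and IgG was run on these peak lists, and nothing in the labels says whether the shared replicate numbers mark pairs. Depth limits the low regions, where a count of 10 to 20 fragments leaves wide intervals, and the IgG libraries, whose median summit held 4 fragments. The antibody's specificity was not tested.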

Other observations

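Of 12 genes known as targets of beta-catenin, 6 had a PPP2CA region at a boundary (50%, beside 39.5% of all protein-coding genes). The growth regulator gene Myc held 85 and 107 fragments in PPP2CA 1 and 2, the angiogenic factor gene Vegfa 74 and 78, and the survivin gene Birc5 45 and 32. Cd44 held 26 and 31, Id2 22 and 28 and Jag1 14 and 13. The other 6, Ccnd1, Sp5, Lgr5, Nkd1, Notum and Mmp7, had no region at a boundary or inside the gene. Lgr5, Nkd1 and Notum are also counted among the 74 other pathway genes. The target Axin2, a member of the pathway list, held 12 and 10 at its listed start.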
